A study of Rattus norvegicus with 8 samples.

Results

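The simple epithelial keratins Krt7, Krt8, Krt18, Krt19 and Krt20 were examined in rat kidney. Members were the array probes whose RefSeq accession carries 1 of these 5 symbols. All 5 genes were found, with 1 probe each, among 15637 named genes on the array. Total RNA from the kidney of male SD (Sprague-Dawley) rats aged 10 weeks was hybridised to single-colour Agilent arrays, 1 array per sample. In the 4 Control samples the animals had received 0.5% methylcellulose, a vehicle, over 4 weeks. In the 4 APL samples they had received APL at 150 mg/kg over the same time. The series title presents a fibrosis model made with allopurinol, and APL is taken here to be that xanthine oxidase inhibitor. The labels do not say whether replicates were separate animals, so p-values measure the spread between these samples. The title speaks of renal tubules and the tissue label of kidney.

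Keratins are the intermediate filament proteins of epithelial cells, and each filament is built from a type II keratin joined to a type I keratin. Simple epithelia use Krt8 and Krt7 as type II partners and Krt18, Krt19 and Krt20 as type I partners. In kidney these keratins are known from collecting duct, parietal epithelium and the urothelium of the pelvis, and the mature proximal tubule has little of them. They are widely used as stains for epithelial stress and injury.

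Within this group the type I keratin Krt18 rose in the APL samples, and its level lay above every Control sample. Krt7, Krt8 and Krt19 had higher means in APL than in Control, by 1.29, 0.69 and 1.28 on the log2 scale, and did not pass the test. Krt20 had a low signal on all arrays, and the sign of its difference depended on the scaling. Of the 5 members 1 passed at an adjusted p under 0.05 (limma), against 23.5% of all 21413 genes or unnamed transcripts tested in either direction and 11.9% with APL higher. The count for this group is therefore near the background of the whole comparison. The median log2 fold change of the members was 1.28, beside -0.03 over all genes tested. Over the other settings the members' median ran from 0.64 (normexp and quantile normalization) to 1.92 (no scaling).

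**Figure D1:**
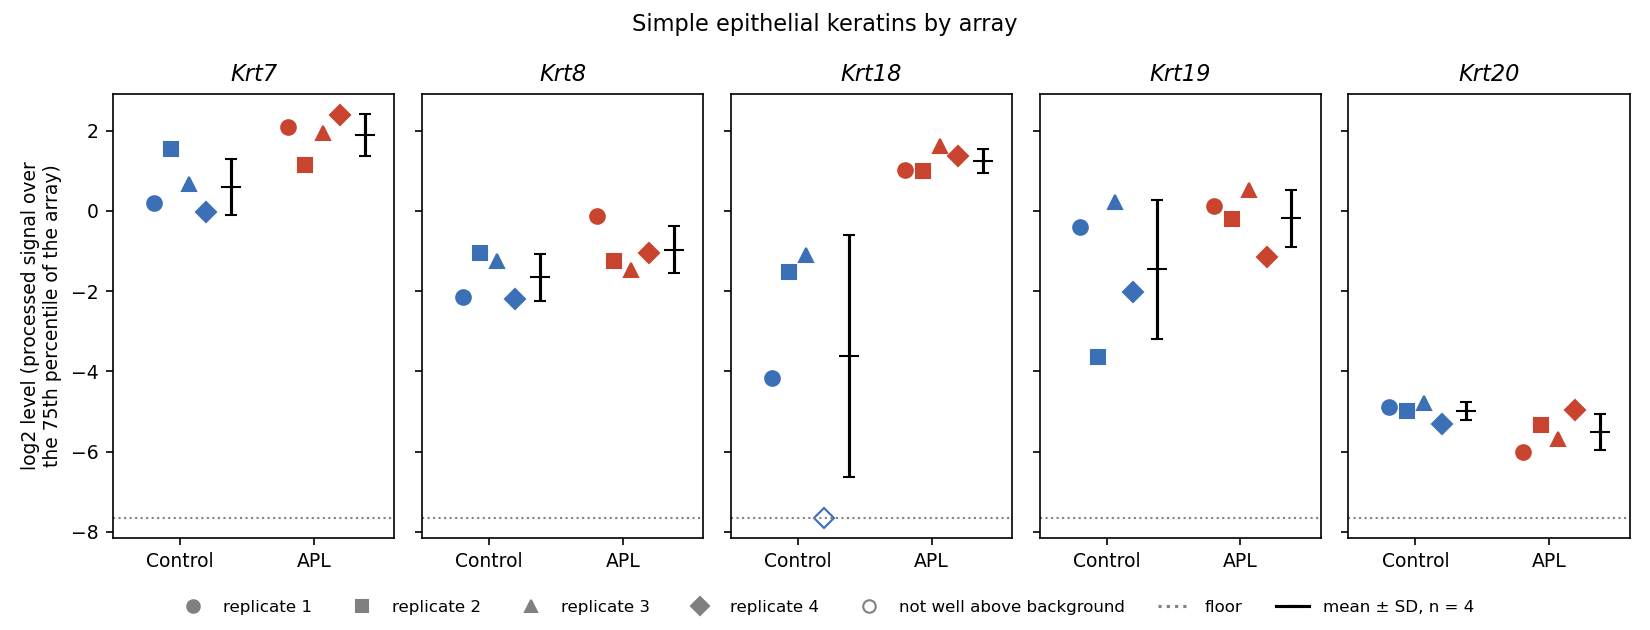
Points give the log2 level of each keratin (processed signal over the 75th percentile of the array) on each of the 4 Control and 4 APL arrays; bars give the mean and SD, open symbols mark a spot not well above background and the dotted line the floor. Krt18 is the member whose groups are apart, and Control replicate 4 lies at the floor for it.

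Levels below are the processed signal of a probe divided by the 75th percentile of its array, with values under 0.005 raised to that floor. That percentile was 272 to 307 on the Control arrays and 378 to 497 on the APL arrays, so the APL arrays were brighter by a ratio of 1.56. Between 73.9% and 77.3% of probes were well above background on the Control arrays and between 79.9% and 81.9% on the APL arrays. Precision is limited by there being 4 arrays in a group. In whole tissue, fewer cells of a type and less RNA per cell cannot be told apart.

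Krt18 encodes the main type I partner of Krt8. Its level was 0.0557, 0.348 and 0.464 on Control replicates 1, 2 and 3, and Control replicate 4 was not well above background and stood at the floor. On APL replicates 1 to 4 it was 2.02, 2.01, 3.05 and 2.57. All 4 APL values lay above the highest Control value, so 1 of 5 members had groups that did not overlap, beside 29.9% of all genes tested (14.0% with APL above and 15.9% with APL below). The Control arrays differed widely among themselves for this gene and the APL arrays did not, with an SD of 3.01 against 0.29 on the log2 scale (n = 4 each). The former rests on the array set to the floor, and over the 3 Control arrays that measured Krt18 the SD was 1.66. On Control replicate 4 the median brightness of the spot was 41 beside a local background of 40, and on APL replicate 3 it was 1411 beside 36.

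The log2 fold change of Krt18 was 4.86 ± 1.32 (standard error), with a 95% interval of 1.82 to 7.89 (limma, adjusted p = 0.0327). On the linear scale the mean level was 0.218 ± 0.223 in Control and 2.41 ± 0.50 in APL (SD, n = 4 each), a ratio of 11. The fold change was 3.85 within slide 1 and 5.86 within slide 2, each slide holding 2 arrays of each group. Normexp background correction gave 2.56 with the 75th percentile and 2.39 with quantile normalization, both still called. The call was lost without Control replicate 1 or without any 1 of APL replicates 1 to 4 (adjusted p up to 0.0786) and when no filter on dim probes was used (adjusted p = 0.0550). Without Control replicate 4, the array at the floor, the value was 3.51 and the adjusted p 0.0159.

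Krt8 is the type II keratin that pairs with Krt18. Its level was 0.226, 0.482, 0.423 and 0.218 on Control replicates 1 to 4 and 0.922, 0.423, 0.362 and 0.483 on APL replicates 1 to 4. APL replicate 1 was the highest array, APL replicates 2 and 3 lay inside the Control range, and the groups overlapped. The probe of Krt8 was printed in 10 spots per array, whose coefficient of variation was 2.04% to 6.13%. Between spots of an array the SD was at most 0.0875 on the log2 scale, and between the Control arrays it was 0.60.

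The log2 fold change of Krt8 was 0.69 ± 0.40, with a 95% interval of -0.22 to 1.6 (limma, adjusted p = 0.244). It was 0.92 on slide 1 and 0.46 on slide 2. Without APL replicate 1 it was 0.41 (adjusted p = 0.462). Without scaling between arrays it was 1.33 and passed (adjusted p = 0.0318), a setting in which the median of all genes was 0.60.

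Krt8 and Krt18 lie side by side on chromosome 7, with no protein-coding gene listed between them by RefSeq (assembly GRCr8). Their promoter windows, from 250 bases before to 50 after the annotated start, are shown because these partners are neighbours with fold changes of unlike size. They are from the RefSeq promoter table of GRCr8, at chr7:135010290-135010589 on the minus strand for Krt8 and chr7:135035918-135036217 on the plus strand for Krt18. Capitals mark matches, on either strand, to the letters TATAAA of the TATA box, to the GC box written as GGGCGG, to the AP-1 motif written as TGANTCA, and to the CCAAT box.
Krt8: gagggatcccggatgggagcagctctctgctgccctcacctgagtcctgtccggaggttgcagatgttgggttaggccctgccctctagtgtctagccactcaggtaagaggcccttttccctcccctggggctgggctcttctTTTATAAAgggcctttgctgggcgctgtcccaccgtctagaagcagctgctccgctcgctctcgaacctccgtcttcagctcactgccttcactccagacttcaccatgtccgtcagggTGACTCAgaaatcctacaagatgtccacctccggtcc
Krt18: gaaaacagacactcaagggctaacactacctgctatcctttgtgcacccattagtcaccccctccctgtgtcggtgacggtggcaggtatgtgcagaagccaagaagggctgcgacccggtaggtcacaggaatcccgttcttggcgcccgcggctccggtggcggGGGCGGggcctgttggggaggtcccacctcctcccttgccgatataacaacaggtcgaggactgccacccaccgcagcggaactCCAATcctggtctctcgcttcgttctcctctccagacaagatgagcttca
The Krt8 window held TATAAA with its first base 104 bases before the start, overlapping a match on the other strand, and TGACTCA from base 14 after it. The Krt18 window held GGGCGG from 84 bases before the start and CCAAT from base 1, and no TATAAA. Directly after the Krt8 start stand the letters atg, those of a start codon, and TGACTCA follows them. The annotated start of Krt8 may thus not be where transcription begins. In the Krt18 window atgagcttca stands at the far end, so positions in these windows may not be counted from like points. Of 33469 windows of this length, 14.2% held the TATA box letters, 33.1% the GC box, 7.33% the AP-1 letters and 37.5% CCAAT. The share of G and C was 59.0% for Krt8 and 60.3% for Krt18, beside a median of 51.7%. A match describes the letters of the window and not binding. The table held windows of 3 of the 5 members, and that of Krt20 held TATAAA from 49 bases before the start.

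Krt7 is the other type II keratin of the group and is found mostly in ducts and urothelium. Its level was 1.15, 2.91, 1.59 and 0.981 on Control replicates 1 to 4 and 4.23, 2.22, 3.81 and 5.28 on APL replicates 1 to 4. Of the APL arrays 3 lay above every Control array, and APL replicate 2 lay below Control replicate 2. The log2 fold change was 1.29 ± 0.41, with a 95% interval of 0.35 to 2.24, and missed the threshold (limma, adjusted p = 0.0542). It was 0.75 on slide 1 and 1.84 on slide 2. Without Control replicate 2 it was 1.61 (adjusted p = 0.0222) and without APL replicate 2 it was 1.54 (adjusted p = 0.0441). With all arrays kept it passed with quantile normalization of the processed signal (1.36, adjusted p = 0.0412) and with normexp and quantile normalization (1.15, adjusted p = 0.0368).

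Krt19 is the smallest of the type I keratins and lacks most of the tail domain. Its level was 0.752, 0.0801, 1.17 and 0.247 on Control replicates 1 to 4 and 1.08, 0.862, 1.44 and 0.450 on APL replicates 1 to 4. Control replicates 1 and 3 were as bright as the APL arrays, Control replicate 2 was lowest, and the highest Control array stood 14.6-fold above it. Within APL the range was 3.20-fold. The log2 fold change was 1.28 ± 0.83, with a 95% interval of -0.63 to 3.18 (limma, adjusted p = 0.298). Without Control replicate 2 it was 0.55 and without Control replicate 3 it was 1.84, and it was 1.98 on slide 1 and 0.58 on slide 2. In none of 13 alternative analyses of all 8 arrays did it pass (adjusted p 0.112 to 0.426). A 7.71% share of genes had a larger SD in Control than Krt19.

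Krt20 is the type I keratin of urothelial umbrella cells and gut epithelium. Its level was 0.0336, 0.0314, 0.0364 and 0.0254 on Control replicates 1 to 4 and 0.0156, 0.0247, 0.0194 and 0.0320 on APL replicates 1 to 4. The spot was called well above background on all 8 arrays, where the lowest level so called was 0.0152 to 0.0173 on the Control arrays and 0.00928 to 0.0133 on the APL arrays. The processed signal before scaling was 7.78 to 10.3 in Control and 7.22 to 15.4 in APL. The log2 difference was -0.51 ± 0.27 (limma, adjusted p = 0.207), and it was 0.13 without scaling between arrays and 0.49 with normexp and the 75th percentile. It passed with quantile normalization of the processed signal (-0.78, adjusted p = 0.0471). Krt20 thus had no direction that held across the scalings.

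Control arrays took a similar order for several members. For Krt7 and Krt8 the order from high to low was replicate 2, 3, 1 and 4, and for Krt18 it was 3, 2, 1 and 4. Control replicate 4 was the lowest Control array for Krt7, Krt8, Krt18 and Krt20, and Krt19 was lowest on Control replicate 2. The summed level of 12 collecting duct markers was 9.93 and 9.80 on Control replicates 2 and 3 and 6.08 and 3.50 on Control replicates 1 and 4. The 75th percentile was 280 and 272 on Control replicates 2 and 3 and 306 and 307 on the others, and replicates 1 and 2 share a slide. In APL the orders differed, with Krt7 highest on replicate 4, Krt8 on replicate 1 and Krt18 and Krt19 on replicate 3. The part of these measures in the keratin values was not tested.

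Partner keratins were compared within each array by the difference of their log2 levels, of which only the shift between the groups has meaning. For Krt8 minus Krt18 it was 2.02, 0.47, -0.13 and 5.45 on Control replicates 1 to 4 and -1.13, -2.25, -3.07 and -2.41 on APL replicates 1 to 4. The groups did not overlap, and the shift was -4.17 ± 1.31 (standard error, exact two-sided permutation p = 0.0286). For Krt7 minus Krt18 the shift was -3.56 ± 1.28 and for Krt20 against Krt18 (Krt18 minus Krt20) 5.36 ± 1.43, both also at an exact permutation p of 0.0286. That is the smallest p that the 70 splits of 8 arrays can give. Adjusted over the 10 pairs of members, these exact p-values became 0.0952, and 0 of 10 pairs passed. The 3 pairs at that value all hold Krt18. Over the other settings these shifts ran from -4.30 to -1.97 for Krt8 minus Krt18, from -3.65 to -1.24 for Krt7 minus Krt18 and from 2.07 to 5.64 for Krt18 minus Krt20, the smallest of each under normexp. At an unadjusted p under 0.05 the count was also these 3. For Krt7 minus Krt8, the type II keratins, the shift was 0.60 ± 0.36 with overlapping groups (exact permutation p = 0.171, adjusted p = 0.214). For Krt7 minus Krt19 it was 0.02 ± 1.21 (exact permutation p = 1, adjusted p = 1).

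**Figure D2:**
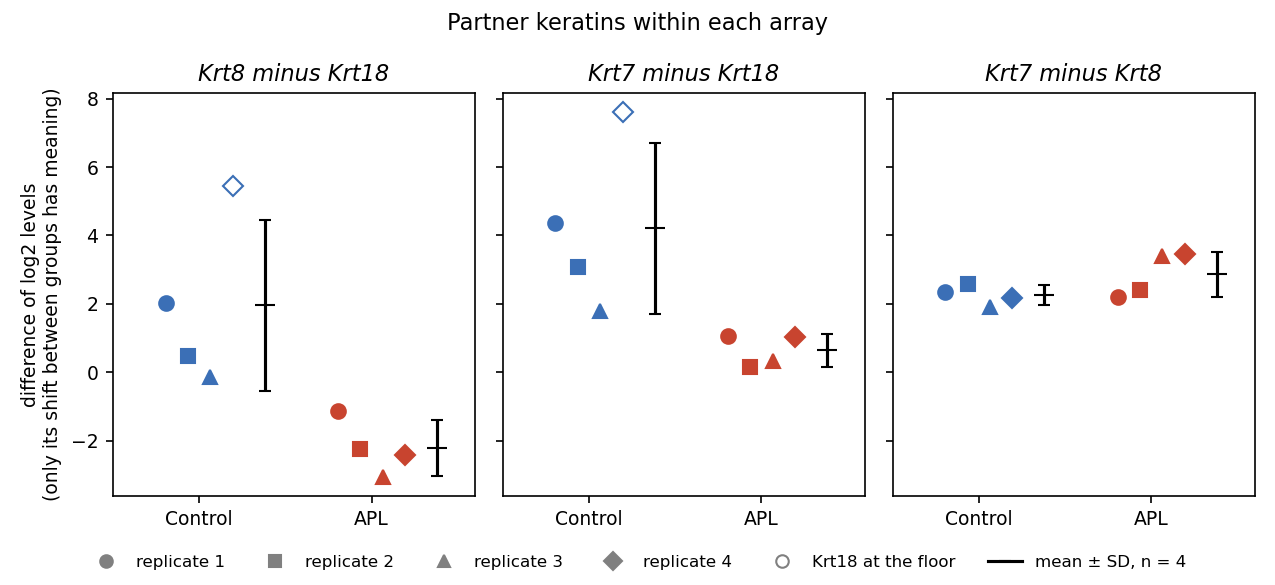
Difference of log2 levels of 2 keratins on each array, by group, with mean and SD (n = 4). The open symbol is Control replicate 4, where Krt18 lies at the floor; without that array the shift of Krt8 minus Krt18 was -3.0.

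The other keratins had few calls under the main scaling. Of 40 other keratin genes on the array 24 passed the filter on dim probes, and 0 were higher and 2 lower at an adjusted p under 0.05 by limma, beside 11.9% and 11.5% of all genes. At an unadjusted p under 0.05 the counts were 0 higher and 8 lower. The shares of all genes above are for adjusted p, and the larger shares at an unadjusted p were not counted. Calls depended on the scaling, with 1 higher and 1 lower without scaling, 0 and 7 with quantile normalization of the processed signal, 0 and 8 with the median in place of the 75th percentile, and 0 and 0 with normexp and the 75th percentile. Their median log2 fold change was -0.50, and it turned to 0.13 without scaling and 0.35 with normexp and the 75th percentile. The genes that passed were Krt28 and Krt72, hair follicle keratins. Krt28 fell by 2.67 ± 0.44 (adjusted p = 0.00396), with levels of 0.352 to 0.706 in Control and 0.0358 to 0.132 in APL, and lost its call under normexp scaled by the 75th percentile (adjusted p = 0.428), with -2.95 to -0.81 over the other settings. Krt72 changed by -1.39 ± 0.40 (adjusted p = 0.0384) and lost its call under 6 of 12 other settings, turning to 0.51 with normexp and the 75th percentile, and without Control replicate 1, 2 or 3 or APL replicate 1, 3 or 4. The tested neighbours of Krt7 and Krt19 in the gene table were Krt80 (-0.24), Krt87 (-0.52), Krt15 (-0.54) and Krt9 (-0.32), named for their position, and none was called.

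Genes that anchor keratin filaments to junctions changed in part. Of 12 tested members 4 were higher and 0 lower, beside 11.9% and 11.5% of all genes, with a median log2 fold change of 0.29. The count was 2 with normexp and the 75th percentile and without Control replicate 2, APL replicate 1 or APL replicate 4. Itgb4, the hemidesmosome integrin subunit, rose by 7.33 ± 0.60 (4.67 to 7.97 over the other settings). Ppl, the cornified envelope and desmosome plakin periplakin, rose by 4.13 ± 0.44 (1.1 to 4.77) with 2 Control arrays well above background. Dsc2, a desmosomal cadherin, rose by 4.36 ± 1.05 (1.01 to 4.78) with 1 Control array well above background. With normexp and the 75th percentile the adjusted p of Dsc2 was 0.0551, and its call was also lost without Control replicate 2 or APL replicate 1 or 4 (adjusted p up to 0.0565). Plec, plectin, which joins keratins to other filaments, was the other (1.54 ± 0.44, adjusted p = 0.0382). It was named after its values were seen, its groups overlapped, and its call was lost under 4 of 13 other settings and without any 1 array except Control replicate 3 (adjusted p up to 0.0874).

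Among 15 chaperones, binding partners and kinases of keratins 2 were higher and 2 lower, a share near that of all genes (11.9% and 11.5%), and 4 and 1 without scaling. Hspb1, a small heat shock protein that binds keratin filaments, rose by 3.21 ± 0.53 (adjusted p = 0.00405), and Tgm2, the crosslinking enzyme of Mallory-Denk bodies, rose by 2.40 ± 0.29. Cryab, another small heat shock protein, fell by 3.11 ± 0.27. Sqstm1, the p62 protein found with keratin in such bodies, changed by -0.73 ± 0.20 (adjusted p = 0.0307; -1.02 to -0.10 over the other settings), and its call was lost under 5 of 13 other settings and without Control replicate 1 or 4 or any 1 APL array. The median of this list was -0.32, and it was 0.32 without scaling and 0.02 with quantile normalization of the processed signal.

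Of 13 other intermediate filament genes 3 were higher and 3 lower, beside 11.9% and 11.5% of all genes. Their median was 0.32 (-0.01 with normexp and quantile normalization). With normexp and the 75th percentile the counts were 3 and 0. Vim, vimentin, rose by 6.14 ± 0.73, and Nes, nestin, rose by 2.98 ± 0.30 (1.96 to 3.62 over the other settings). Lmna, the nuclear lamin A/C gene, rose by 1.47 ± 0.29 (0.77 to 2.19) and lost its call under 3 of 13 other settings. Its spot on APL replicate 2 was left out as non-uniform, so that value rests on 3 APL arrays. Nefm, a neurofilament subunit, was at least 20.7-fold lower under the main scaling. No APL array was well above background for it, so it passed the filter through the Control arrays alone. Bfsp2, the lens filament protein phakinin, fell by 4.88 ± 0.70. Under normexp scaled by the 75th percentile neither was called (adjusted p = 0.649 and 0.404), and over the other settings they ranged from -6.39 to -0.68 and from -5.16 to -1.17. Gfap changed by -0.62 ± 0.19 (adjusted p = 0.0457) and lost its call under 6 of 12 other settings, with its sign turned under 2 of these (normexp with the 75th percentile, and no scaling), and without any 1 array except APL replicate 2.

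Of 20 transcription and splicing factors of epithelial identity 7 were higher and 2 lower, beside 11.9% and 11.5% of all genes. Their median was 0.88, and the splicing factors among them were Esrp1 and Esrp2. Sox4 rose by 4.66 ± 0.41, Klf6 by 4.13 ± 0.57 (2.68 to 4.77 over the other settings) and Klf5, a factor of duct and gut epithelium, by 3.80 ± 0.66 (2.07 to 4.65). For Tfap2a, not well above background on any Control array, APL was at least 5.36-fold higher under the main scaling (adjusted p = 0.00961). It passed the filter through the APL arrays alone, its Control values all lay at the floor, and its fitted log2 value ran from 0.59 to 4.73 over the other settings. It was no longer called under normexp followed by quantile normalization (adjusted p = 0.0709) or once the floor was raised to 0.02 (adjusted p = 0.0671). The lower genes were the splicing factor Esrp2 (-1.23 ± 0.29) and Ovol1 (-1.09 ± 0.25). Without scaling both lost their call (adjusted p = 0.137 and 0.142). Esrp2 was also not called under normexp with the 75th percentile or without APL replicate 4, and its value ran from -1.52 to -0.59 over the other settings. Ovol1 ran from -0.45 without scaling to -3.04 with the mean over its probes, which differed in size. Esrp1, the paralogue of Esrp2, was among the 7 higher genes (2.40 ± 0.73, limma, adjusted p = 0.0486). It was named after its values were seen.

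**Figure D3:**
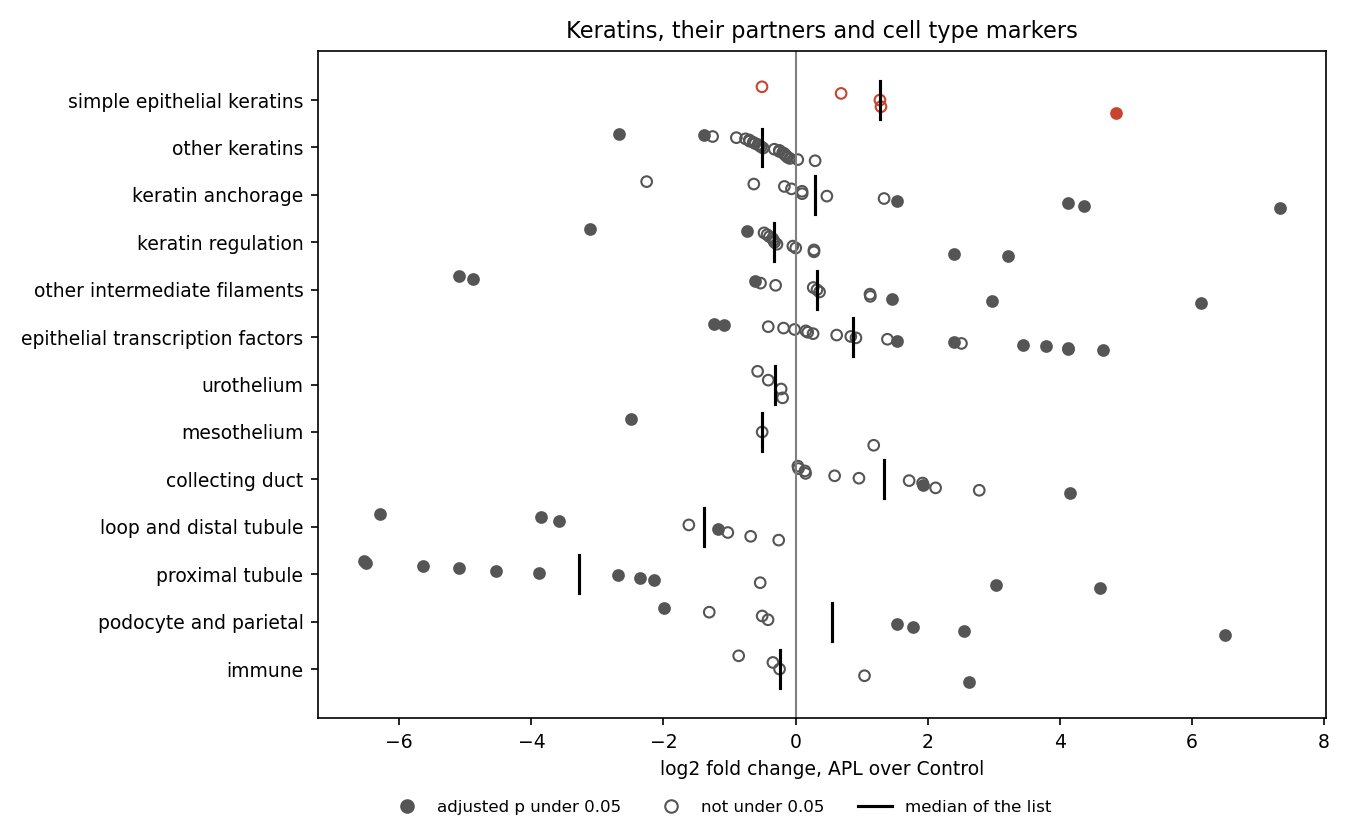
Log2 fold change, APL over Control, of every tested gene of each list (filled at an adjusted p under 0.05) with the median of the list as a bar. The 5 keratins are in red, the other keratins lie mostly left of 0 under the main scaling (their median turns positive without scaling), and the proximal tubule markers reach -6.54.

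Markers of the cell types that could carry these keratins were set beside them. Of all genes tested, 11.9% were higher and 11.5% lower at an adjusted p under 0.05, the background for these counts. Collecting duct markers had 2 of 12 members higher and 0 lower (4 without Control replicate 2, and 1 without Control replicate 3 or 4 or APL replicate 1 or 3), a median of 1.34 (0.44 with normexp and quantile normalization), and a summed level of 3.50 to 9.93 in Control and 7.21 to 29.7 in APL. The 2 were the water channels Aqp2 (1.93 ± 0.48, adjusted p = 0.0250) and Aqp4 (4.15 ± 0.87), and each lost its call with normexp and the 75th percentile. Only 2 Control arrays detected Aqp4 well above background. Its value ran from 0.52 to 4.72 over the other settings, the lowest from another probe of the gene. Aqp2 was also not called when leaving out Control replicate 3 or 4 or APL replicate 1 or 3, and Aqp4 under 3 further settings. Aqp3 was not called (0.96 ± 1.18), and it was -0.27 without Control replicate 4. Of 7 urothelium markers on the array 4 were tested and 0 were called by limma. At an unadjusted p under 0.05, 0 were higher and 2 lower (Upk1b and Tp63). The share of all genes at that unadjusted threshold was not counted. Upk2, a urothelial plaque protein, and Ivl were well above background on no array, and Krt5 on 0 Control and 2 APL arrays. Upk1a (-0.20 ± 0.19) and Upk1b (-0.57 ± 0.24) turned their sign without scaling and with normexp and the 75th percentile. The summed level of this list without Tp63, whose probe was far brighter than the rest and whose match to this gene was not tested further, was 0.266 to 0.352 in Control and 0.234 to 0.306 in APL, and with it 123 to 150 and 95.7 to 108. Of 5 mesothelium markers on the array 3 were tested, with summed levels of 2.11 to 4.44 and 0.603 to 0.781. Most of that sum was the probe of Gpm6a, at 2.05 to 4.39 in Control and 0.403 to 0.663 in APL. Gpm6a fell by 2.49 ± 0.29, while Msln (1.18 ± 0.94) and Wt1 (-0.50 ± 0.30) were not called. Bnc1, not tested, was well above background on 0 Control and 2 APL arrays. The part of these cell types in the keratin values was not tested.

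Nephron markers were present in every sample. The counts of calls below stand beside 11.9% of all genes higher and 11.5% lower. The summed level of 12 proximal tubule markers was 464 to 597 in Control and 45.7 to 60.9 in APL, with 9 lower and 2 higher, among them Slc34a1 (-4.53 ± 0.39), Pck1 (-6.54 ± 0.37), Slc22a6 (-6.51 ± 0.37), Slc22a8 (-5.09 ± 0.69), Miox (-5.64 ± 0.29), Slc5a2 (3.04 ± 0.66) and Slc5a12 (4.61 ± 0.93, 1.04 to 5.17 over the other settings, with 1 Control array well above background, and not called under normexp scaled by the 75th percentile). Of 8 thick limb and distal tubule markers 4 were lower and 0 higher, with summed levels of 50.3 to 68.3 and 3.26 to 21.5. The lower count was 2 without a filter on dim probes and without any 1 array except APL replicates 2 and 4. Of 8 podocyte and parietal markers 4 were higher (2 with normexp and the 75th percentile) and 1 lower, with 5.22 to 7.09 and 13.4 to 23.1. Of 5 tested leukocyte markers 1 was higher and 0 lower, with 1.32 to 2.06 and 1.67 to 3.0. The higher one was Cd68 (2.62 ± 0.36, 1.34 to 3.26 over the other settings), and Ptprc, the common leukocyte antigen, was not called (1.04 ± 0.63). How far these shifts bear on the keratins was not tested.

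Genes most like each keratin were found by the root mean square difference of log2 values over the 8 arrays, each gene centred on its own mean, among 10353 named genes well above background on all arrays. Nearest to Krt18 were Tes (0.77), Il1rn (0.91) and Klf11 (1.07), whose log2 fold changes were 3.99 ± 0.96, 4.52 ± 1.0 and 3.43 ± 0.96. Nearest to Krt7 were Stim1 (0.26), Utp15 (0.27) and Mgmt (0.34). Nearest to Krt8 were Creb3l2, Ms4a6bl1 and Zbtb7a (0.24, 0.24 and 0.25). Nearest to Krt19 were Odad4, Sv2a and Rbm6 (0.53, 0.57 and 0.60), and nearest to Krt20 were Phox2a, Mt2A and Denr, each at 0.14. Krt18 also had the widest spread over the arrays, and the measure grows with it. No member was among the candidates, and the measure is a description of these 8 arrays.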

How the data were processed

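Per the file headers, the arrays (design 028282, build rn4) were read with Agilent Feature Extraction 10.5.1.1, and the deposited intensity values are a processed signal, already corrected for background, and median spot and background brightness. The authors also deposited a log2 table; a rebuild as log2 of the processed signal over the 75th percentile, centred per probe, matched 93.7% of its values within 0.01 (correlations 0.9992 to 0.9997). Its scale is therefore log2, its direction is that of the signal, and it is centred per probe on the median. The columns of Control replicates 1 to 4 had medians of 0.0338, 0.0662, 0.0771 and 0.00597, and those of APL had -0.0724, 0.0186, -0.136 and -0.0445 in the same order. It served as an alternative.

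Here non-uniform spots (2 to 64 per array) were left out, spots of a probe averaged, the processed signal divided by the 75th percentile, a floor of 0.005 set and log2 taken. No probe was saturated. Probes well above background on at least 4 of 8 arrays were kept, and a gene was represented by its brightest probe. Symbols came from a RefSeq table of GRCr8 by unversioned accession (18643 of 30367 probes). The linear model was fitted with limma (version 3.58.1, R version 4.3.3) over all 21413 genes or unnamed transcripts, p-values adjusted by the Benjamini-Hochberg method. The fit was tested on simulated data. Pairs of members were compared by exact permutation. Fold changes are APL over Control and ± is the standard error unless an SD is named. A lower bound sets the brighter group against the lowest signal well above background. The planned normexp correction was run on the median spot signal in place of the mean.

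Named genes are the 5 members, up to 4 called genes per list and direction whose groups did not overlap, the first 3 genes of each marker list, and the 3 nearest genes per member; exceptions are marked. Alternatives were other background corrections, scalings, floors and filters, the deposited table, the mean over probes, slide and replicate blocks, and each array left out. The members and lists were chosen with earlier results of these data known.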

Additional observations from a re-analysis of the deposited data

Results flagged for a closer look

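Sets were the values of a member or named gene on all 4 arrays of a group, where these were not all equal. Among 140 sets 7 had a lone array apart from the other 3. The measure was the gap to its neighbour over the range of the group, against Dixon's critical value. These 7 are 5% of sets, about the share that chance alone gives where no values are tied. No member keratin was among them. The gap over the range was 0.835 for Itgb4 in Control (replicate 1 highest), 0.847 for Aqp3 in Control (replicate 4 lowest, 0.0348 beside 0.782 to 1.37) and 0.845 for Slc5a12 in Control (replicate 3 highest). It was 0.840 for Nefm in APL (replicate 1 highest, all values near the floor, and replicates 3 and 4 tied at it). The gap was 0.898 for Klf6 in APL (replicate 4 lowest, 0.936 beside 3.51 to 4.08), 0.929 for Slc22a6 in APL (replicate 3 highest) and 0.938 for Slc22a8 in APL (replicate 2 lowest).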

How the results depend on the processing

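The median log2 fold change of all genes was -0.03, and moved to 0.60 without scaling between arrays, -0.31 with the median in place of the 75th percentile and 0.36 with normexp and the 75th percentile; member values move with it. The number of genes called was 5026, of which 2554 were higher and 2472 lower. It was 2026 with normexp and the 75th percentile (1052 and 974) and 3258 with a replicate block (1642 and 1616). The split was 5888 and 1143 without scaling, 1739 and 3849 with the median. Same-numbered arrays lie on the same slide, and their deviations from the group means correlated at -0.0158 to 0.0481. Krt18 kept its sign under every setting that gave a value, and it was not tested with a filter of all 8 arrays. Its log2 fold change of 4.86 had an adjusted p of 0.0550 without a filter and 0.0559 with a replicate block. Krt7 passed at 1.15 with normexp and quantile normalization, 1.36 with quantile normalization of the processed signal, 1.93 without scaling and 1.29 (adjusted p = 0.0456) with detection required on all 8 arrays. Krt8 passed at 1.33 without scaling. Krt20 was 0.49 with normexp and the 75th percentile, 0.13 without scaling and -0.78 with quantile normalization of the processed signal. With 1 array left out, the count of calls ran from 3383 to 4190, Krt7 from 1.09 to 1.61, Krt8 from 0.41 to 0.89, Krt18 from 3.51 to 5.69, Krt19 from 0.55 to 1.84 and Krt20 from -0.69 to -0.34. Of the pair shifts, Krt7 minus Krt19 ran from -0.52 to 1.06 and Krt8 minus Krt19 from -1.10 to 0.34, so both signs were seen, and Krt8 minus Krt18 from -4.86 to -3.00. No pair passed in any setting, which says nothing of stability, since 3 pairs at the smallest possible p already adjust to 0.0952. With the replicate block Sqstm1, Lmna, Gfap, Esrp2, Aqp2 and Plec also lost their calls. The calls over the 12 lists ran from 33 to 57. Where a call moved, the cause was not tested. Krt20 lies near the lowest signal well above background and Krt18 is unmeasured on 1 Control array, so both are limited by signal over background.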

Other observations

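Of the 16 other keratins on the array that did not pass the filter on dim probes, Krt23 and Krt40 were well above background on 0 of 4 Control and 3 of 4 APL arrays. Krt23, a type I keratin next to Krt20 in the gene table, lay at or within rounding of the floor of 0.005 on all 4 Control arrays and at 0.0050, 0.0413, 0.195 and 0.0507 on APL replicates 1 to 4. Krt40 lay at 0.0066 to 0.0157 in Control and 0.0086 to 0.0209 in APL. Krt5, the basal keratin of urothelium and stratified epithelium, was well above background on 0 Control and 2 APL arrays, at 0.0082 to 0.0145 and 0.0063 to 0.0147. These genes were chosen after their values were seen, and none was tested in the main analysis.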
